A study of Danio rerio with 12 samples.

Results

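Developmental transcription factors of 13 families were followed in whole zebrafish larvae raised with or without lead (Pb). A gene belonged to this set when its symbol carried a family name (hox, pax, sox, fox, tbx or eomes, dlx, lhx, nkx, irx, gata, klf, meis, pou, neurod, ascl, olig, her or that of the sine oculis genes), and the rule reads the symbol alone. The rule found 36 genes among the 2663 named targets of the array, which holds 37157 targets in all. Each target stands for a known or predicted transcript, and 34494 of them had no name here, so genes of these families may be among the unnamed ones. The fox family gave 13 genes, klf 5, irx and pou 3 each, pax, meis and her 2 each, and hox, nkx, sox, gata, olig and the T-box family 1 each. No dlx, lhx, sine oculis, neurod or ascl gene was among the named targets, and each of the 36 genes had a single target.

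Proteins of these families bind DNA through a shared fold (a homeodomain, a forkhead, a paired domain, an HMG box, a T-box, zinc fingers or a basic helix-loop-helix) and switch on or hold down the genes that give a cell its position and type. Hox proteins and their Meis and Pbx partners set position along the body. Iroquois, Pax and Olig proteins divide the neural tube into domains, and many but not all Her proteins carry out Notch signals. Fox proteins serve tasks as different as cell division, cilia and the response to insulin. Many proteins of these families are used first to lay out the embryo and later in a few cell types of the larva.

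Larvae of 4 groups were compared, with 3 one-color arrays each and 12 in all: Pb-treated larvae at 120 hours postfertilization (hpf), control larvae at 120 hpf, Pb-treated larvae at 72 hpf, and control larvae at 72 hpf. All fish were of the wild-type AB strain, Pb was given as lead acetate at 100 ppb from shortly after fertilization until collection, and controls were kept at 0 ppb. RNA of 50 pooled embryos made 1 biological replicate, so an array averages over all tissues of 50 animals. In such bulk RNA fewer cells of a type and less RNA per cell cannot be told apart.

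Values are log2 intensities, the mean over the probes of a target after quantile normalization of the 12 arrays. Of the 36 genes, 28 were read by 12 probes, and the fewest were 2 for *pax7a* and 3 for *gata3*. A difference passed the test when limma's p value, adjusted by Benjamini-Hochberg over all 37157 targets, was under 0.05. Signal depends on the probes as well as on the transcript, so the level of a gene was compared between groups and never with that of another gene.

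The Pb arrays were more scattered than the control arrays, and Pb arrays 1 and 3 of 72 hpf stood farthest from the others of their group. Each Pb array at 72 hpf correlated with the others of its group at a mean r of 0.914 (array 1), 0.946 (array 2) and 0.931 (array 3), and each control array at 72 hpf at 0.979 to 0.984. At 120 hpf these values were 0.945 to 0.962 for Pb arrays and 0.966 to 0.980 for control arrays. Of the 36 genes, 28 (77.8%) had a larger SD among the Pb arrays than among the control arrays at 72 hpf, as did 79.2% of all targets. The gradient of signal along targets, as a slope of log2 signal on relative probe position, was 0.608 on 72 hpf Pb array 1 against 0.259 on control array 1, and 0.0374 on 72 hpf Pb array 3 against 0.243 on control array 3. At 120 hpf the slope was 0.272, 0.468 and 0.203 on Pb arrays 1, 2 and 3, against 0.401, 0.147 and 0.270 on the control arrays. Pb array 2 of 120 hpf was thus also steeper than its control array. The tissue label was checked with the few named markers: the muscle actin *acta1b*, the embryonic globin *hbae3* and the lens crystallin *crygn2* stood at percentiles 99.7, 99.3 and 98.9 of mean signal over all targets (a rank that also depends on the probes), and no marker of neurons, liver, intestine, epidermis or cartilage was named.

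The comparison of 120 hpf with 72 hpf asked how the transcription factors moved as the larva matured. Levels of 5 genes differed between the time points when both treatments were averaged. The forkhead genes *foxf2a* and *foxm1* and the homeobox genes *nkx3.3* and *hoxc13b* fell to lower levels at 120 hpf, by 1.47-fold to 2.01-fold, and the forkhead gene *foxi3a* rose 1.49-fold. Of the 36 genes, 28 (77.8%) were lower and 8 higher at 120 hpf, where 56.4% of all targets were lower. The median log2 difference of the 36 genes was −0.19, against −0.05 for all targets. This average over treatments, 6 arrays against 6, was added after the data had been seen. In that comparison 7.62% of all targets passed the test as higher (2833) and 4.74% as lower (1760) at 120 hpf, whereas with values as deposited 767 were higher and 1710 lower.

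Within each treatment, with 3 arrays against 3, fewer genes passed. In Pb-treated larvae *foxf2a* and *nkx3.3* passed as lower at 120 hpf and no gene as higher. Of all targets 0.729% passed as lower there and 2.23% as higher. In control larvae *foxm1* alone passed as lower and no gene as higher, where 1.14% of all targets passed as lower and 3.61% as higher. At an unadjusted p under 0.05 the counts were 11 of the 36 genes in Pb-treated larvae, where 14.5% of all targets reached it, and 7 in control larvae, where 16.6% did. The median log2 difference of the 36 genes was −0.14 in Pb-treated and −0.27 in control larvae, against −0.05 and −0.04 for all targets. In each treatment 26 genes (72.2%) were lower, where 55.4% of all targets were in Pb-treated and 54.9% in control larvae. In Pb-treated larvae the median was −0.08 without Pb array 2 of 72 hpf and −0.25 without Pb array 1 of 72 hpf.

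**Figure D1:**
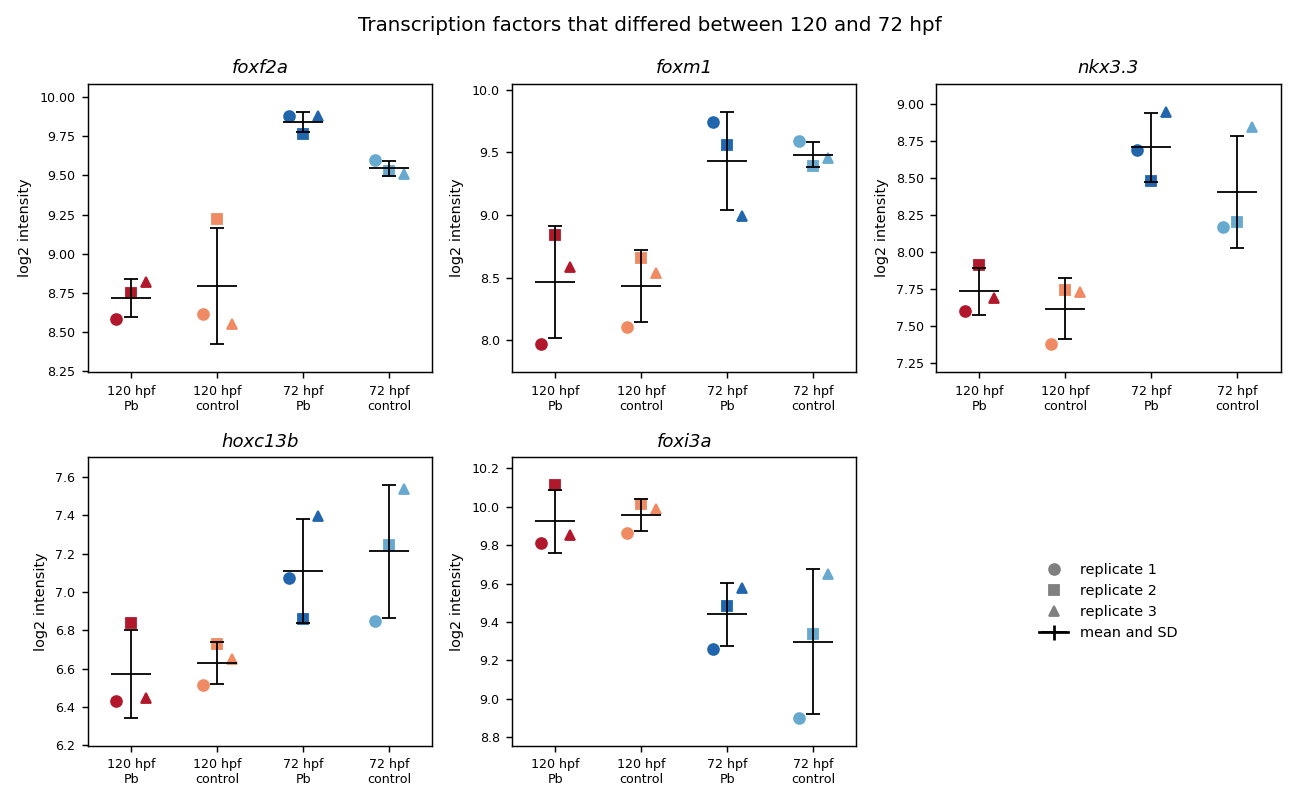
Log2 intensity of *foxf2a*, *foxm1*, *nkx3.3*, *hoxc13b* and *foxi3a* on each of the 12 arrays, by group, with the replicate number given by the symbol and the mean and SD of 3 arrays as bars. For *foxf2a*, *foxm1*, *nkx3.3* and *hoxc13b* the 6 arrays of 120 hpf lie below the 6 arrays of 72 hpf, and for *foxi3a* they lie above.

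*foxf2a* encodes a forkhead protein of mesenchyme, known in zebrafish from the neural crest of the face and from the pericytes of brain vessels. Its log2 intensity was 8.58, 8.75 and 8.82 in Pb-treated larvae at 120 hpf, against 9.88, 9.77 and 9.88 in Pb-treated larvae at 72 hpf. In control larvae it was 8.61, 9.22 and 8.55 at 120 hpf, against 9.60, 9.53 and 9.51 at 72 hpf. The highest array of 120 hpf lay below the lowest of 72 hpf in both treatments. The log2 difference was −1.13 ± 0.20 (SE) in Pb-treated larvae (limma adjusted p = 0.00836) and −0.75 ± 0.20 in control larvae (adjusted p = 0.0533), and over both treatments −0.94 ± 0.14 (adjusted p = 0.000929). All 12 probes of the target were lower at 120 hpf in each treatment.

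*foxm1* encodes the forkhead protein that drives genes of the late cell cycle and is found in dividing cells. It stood at 7.97, 8.84 and 8.58 in Pb-treated larvae at 120 hpf, against 9.74, 9.56 and 8.99 in Pb-treated larvae at 72 hpf. The control larvae gave 8.11, 8.66 and 8.54 at 120 hpf and 9.59, 9.39 and 9.45 at 72 hpf. The arrays of the time points did not overlap in either treatment, although the gap was narrow in Pb-treated larvae. *foxm1* differed by −0.97 ± 0.27 (log2, SE) in Pb-treated larvae (limma adjusted p = 0.0790), −1.04 ± 0.27 in control larvae (adjusted p = 0.0442) and −1.01 ± 0.19 over both (adjusted p = 0.00392), and all 12 probes were lower at 120 hpf in each treatment. The call in control larvae was lost when any 1 of 8 arrays was left out (adjusted p 0.0271 to 0.182 over 12 such fits: control arrays 1, 2 and 3 and Pb array 2 of 72 hpf, and control arrays 1, 2 and 3 and Pb array 3 of 120 hpf).

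Named markers of dividing cells also had lower estimates at 120 hpf. The cyclin gene *ccna2* gave −1.13 (log2, limma adjusted p = 0.0559) in Pb-treated larvae and −1.03 (adjusted p = 0.0633) in control larvae. It passed over both treatments (limma log2 difference −1.08, adjusted p = 0.00394). The replication helicase gene *mcm5* gave −0.82 (limma adjusted p = 0.182) in Pb-treated larvae and −0.71 (adjusted p = 0.232) in control larvae. Over both it gave −0.76 (adjusted p = 0.0288). The control arrays of *mcm5* overlapped between time points. These 2 genes were the whole named part of the cell cycle markers, and their part in the *foxm1* difference was not tested. The globin *hbae3*, the 1 named blood marker, was also lower at 120 hpf (log2 difference −0.99 in Pb-treated larvae, limma adjusted p = 0.0361, and −1.01 in control larvae, adjusted p = 0.0253).

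*nkx3.3* belongs to the homeobox subfamily of *nkx3.2*, the jaw joint regulator. It read 7.60, 7.91 and 7.69 in Pb-treated larvae at 120 hpf, against 8.69, 8.48 and 8.95 in Pb-treated larvae at 72 hpf. In control larvae the values were 7.38, 7.74 and 7.73 at 120 hpf and 8.17, 8.20 and 8.84 at 72 hpf. Again no array of 120 hpf reached the lowest of 72 hpf. Between time points *nkx3.3* differed by −0.97 ± 0.23 (log2, SE) in Pb-treated larvae (limma adjusted p = 0.0383), −0.79 ± 0.23 in control larvae (adjusted p = 0.0744) and −0.88 ± 0.16 over both (adjusted p = 0.00333). The call in Pb-treated larvae was lost when any 1 of 8 arrays was left out (adjusted p 0.0296 to 0.160: Pb arrays 1, 2 and 3 and control array 2 of 72 hpf, and Pb arrays 1 and 3 and control arrays 1 and 3 of 120 hpf), whereas the call over both treatments held in all 12 such fits.

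*hoxc13b* is a gene of the most posterior Hox group, whose mouse ortholog is needed for hair. On the array it was a dim target, at percentile 20.6 of mean signal over all targets. It stood at 6.43, 6.84 and 6.45 in Pb-treated larvae at 120 hpf and 7.07, 6.86 and 7.40 in Pb-treated larvae at 72 hpf. In control larvae it stood at 6.51, 6.73 and 6.65 at 120 hpf and 6.85, 7.24 and 7.54 at 72 hpf. The groups lay next to each other without overlap. The log2 difference was −0.54 ± 0.22 in Pb-treated larvae (SE, limma adjusted p = 0.282), −0.58 ± 0.22 in control larvae (adjusted p = 0.201) and −0.56 ± 0.16 over both (adjusted p = 0.0377).

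*foxi3a*, the 1 gene of the 36 that passed as higher with all probes, specifies ionocytes, the salt-transporting cells of zebrafish skin. Its log2 intensity was 9.81, 10.11 and 9.85 in Pb-treated larvae at 120 hpf, against 9.26, 9.49 and 9.58 in Pb-treated larvae at 72 hpf. In control larvae it was 9.86, 10.02 and 9.99 at 120 hpf, against 8.90, 9.34 and 9.65 at 72 hpf. All 6 arrays of 120 hpf were above all 6 of 72 hpf. Between time points *foxi3a* differed on the log2 scale by 0.49 ± 0.21 in Pb-treated larvae (SE, limma adjusted p = 0.306), 0.66 ± 0.21 in control larvae (adjusted p = 0.110) and 0.57 ± 0.15 over both (adjusted p = 0.0250).

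The calls over both treatments take the 12 arrays as independent, although Pb and control arrays of 1 replicate number tended to deviate together. The consensus correlation within pairs was 0.32 over both time points, but the deviations of replicate 3 at 72 hpf did not correlate (−0.069). With the pair as a random block, *foxf2a*, *foxm1* and *nkx3.3* passed, and *hoxc13b* (adjusted p = 0.0813) and *foxi3a* (adjusted p = 0.0551) did not. With only the probes within 500 nt of the last, *foxm1* (adjusted p = 0.0736), *foxi3a* (adjusted p = 0.0737) and *hoxc13b* (log2 difference −0.28, adjusted p = 0.416) no longer passed over both treatments. *foxf2a* and *nkx3.3* passed with those probes, as did *foxd7* as lower (log2 difference −0.64) and *foxk1* as higher (0.95). Of all targets, 2271 passed as higher and 1156 as lower with those probes. Leaving out 72 hpf Pb array 1, with all probes, raised the count to 9 of the 36 genes. *foxo1b*, *foxd7*, *foxi2* and *foxl2a* then passed as lower at 120 hpf beside the 5 genes that passed with all arrays. The same omission raised the count over all targets from 2833 higher and 1760 lower to 3552 higher and 2708 lower.

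**Figure D2:**
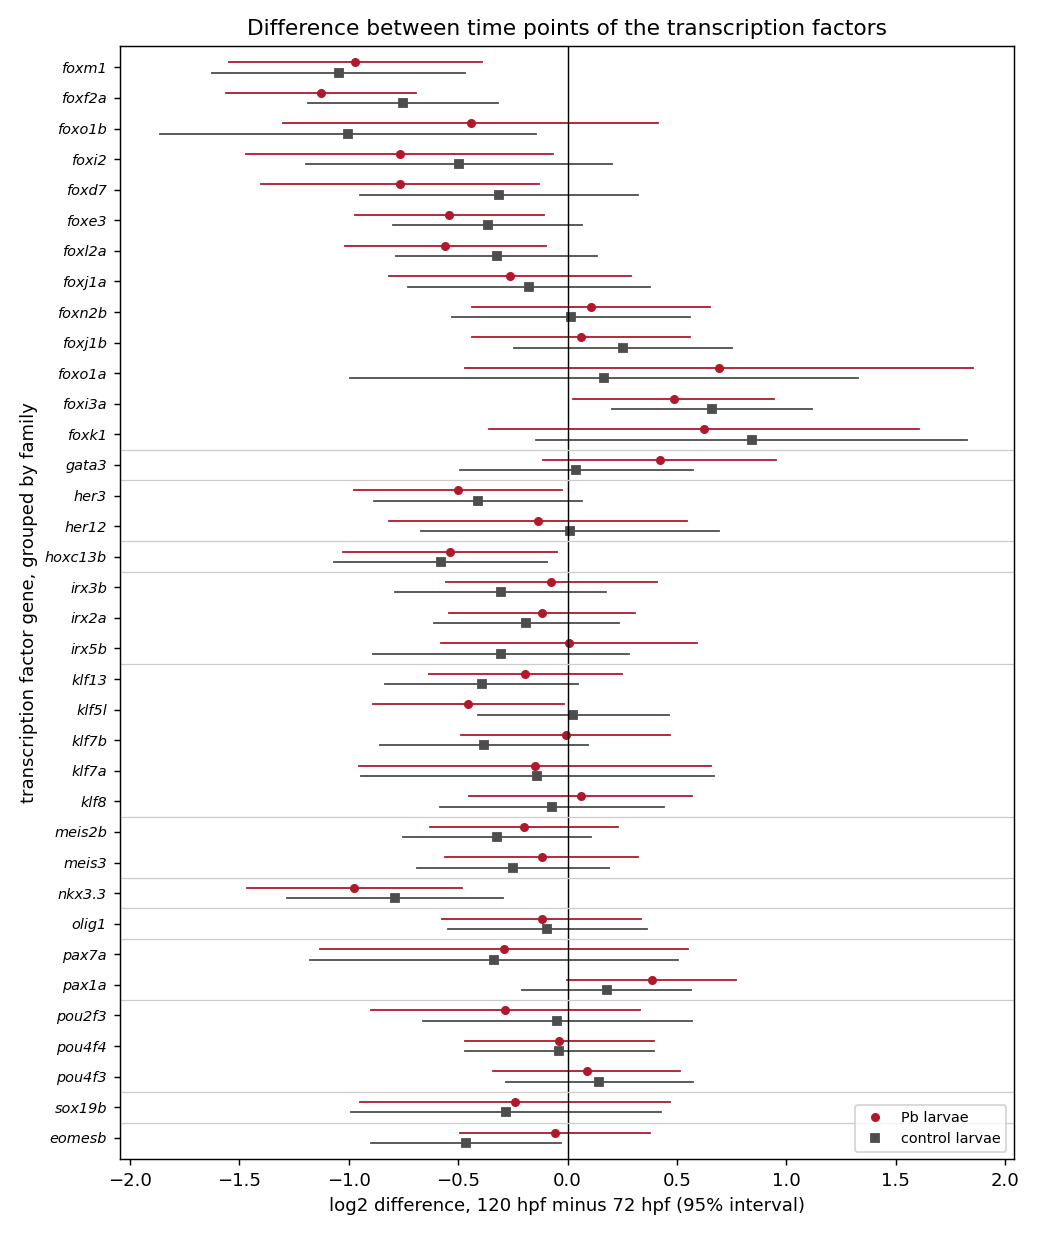
Log2 difference between 120 and 72 hpf (120 minus 72 hpf, limma estimate with 95% interval) of the 36 transcription factor genes, grouped by family, with Pb-treated larvae as circles above control larvae as squares. The fox family spreads from −1.13 to 0.84, and among the irx, klf, meis, olig and pou genes the farthest from 0 is *klf5l* in Pb-treated larvae (−0.45).

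The fox family held both ends of the distribution. Its 13 genes had a median log2 difference of −0.44 over both treatments, 8 were lower and 5 higher at 120 hpf, and 9 had an unadjusted p under 0.05, as did 25.7% of all targets. Besides *foxf2a*, *foxm1* and *foxi3a*, the lens gene *foxe3* (log2 difference −0.45 over both, limma adjusted p = 0.0544), *foxl2a*, whose mammalian ortholog maintains the ovary (−0.44, adjusted p = 0.0766), *foxi2* (−0.63, adjusted p = 0.0961) and *foxd7* (−0.54, adjusted p = 0.118) came closest to the threshold on the lower side. *foxk1* had the highest estimate of all 36 genes, with 10.11, 9.24 and 10.15 in Pb-treated larvae and 9.90, 10.11 and 10.06 in control larvae at 120 hpf, and with 7.95, 10.12 and 9.56 in Pb-treated larvae and 8.87, 9.62 and 9.04 in control larvae at 72 hpf. The control arrays of *foxk1* did not overlap between time points, and the Pb arrays did. The log2 difference of *foxk1* over all probes, 0.73 ± 0.32, did not pass (SE, limma adjusted p = 0.171).

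Paralogs within the fox and klf families, pairs of genes left by the genome duplication of teleosts, were set side by side. *foxo1a* and *foxo1b*, both orthologs of the insulin-regulated FOXO1, had estimates of opposite sign over both treatments, 0.43 ± 0.38 for *foxo1a* and −0.72 ± 0.28 for *foxo1b* (SE, limma adjusted p = 0.526 and 0.121). In control larvae *foxo1b* stood at 7.55, 7.76 and 7.99 at 120 hpf and at 8.52, 8.93 and 8.87 at 72 hpf, without overlap, and *foxo1a* at 10.38, 9.92 and 10.38 at 120 hpf and at 9.80, 10.36 and 10.01 at 72 hpf, with overlap. *foxj1a* and *foxj1b*, regulators of motile cilia, gave −0.22 ± 0.18 and 0.16 ± 0.16, and *klf7a* and *klf7b*, whose mammalian ortholog promotes axon growth, gave −0.14 ± 0.26 and −0.20 ± 0.16, and none of these passed. The difference between paralogs was not tested, since each is read by probes of its own.

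The genes of the irx, meis, olig, sox, her and pax families did not pass between the time points. The 3 Iroquois genes *irx2a*, *irx3b* and *irx5b* were lower at 120 hpf over both treatments by 0.15 to 0.19 on the log2 scale, and the Hox partners *meis2b* and *meis3* gave −0.26 and −0.18. *olig1*, of the oligodendrocyte lineage, gave −0.11 and *sox19b*, which acts with other SoxB1 genes in the early zebrafish embryo and in neural progenitors, −0.26. The 2 her genes, *her3* and *her12*, gave −0.45 and −0.06. *pax7a*, of the dorsal neural tube, neural crest and muscle precursors, gave −0.31 and *pax1a*, of the sclerotome and the pharyngeal pouches, 0.28. The smallest adjusted p of these 11 genes was 0.0793, for *her3*.

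The remaining genes did not pass either. *pou4f3*, the hair cell factor of the ear and the lateral line, gave a log2 difference of 0.12 over both treatments, *pou4f4* −0.04 and *pou2f3* −0.17. *klf5l*, *klf8* and *klf13* gave −0.21, −0.01 and −0.29, *gata3*, which acts in the inner ear and in lymphocytes, 0.23, *eomesb*, a paralog of the endoderm gene *eomesa*, −0.26, and *foxn2b* 0.06. In the current annotation *klf8*, *klf5l* and *pou4f4* are neighboring genes, and *irx3b* and *irx5b* have 1 gene between them.

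Groups without overlap were counted as well. In Pb-treated larvae 2 genes, *foxi3a* and *pax1a*, had every 120 hpf array above every 72 hpf array, and 7 had them all below, where 7.97% and 6.98% of all targets did so. In control larvae the counts were 2 genes above, *foxi3a* and *foxk1*, and 13 below, where 15.1% and 15.6% of all targets did so. The 13 genes lower without overlap in control larvae included *eomesb*, *klf7b*, *klf13*, *meis2b*, *meis3*, *her3* and *foxo1b* besides those already described, and those of Pb-treated larvae were *foxd7*, *foxe3*, *foxf2a*, *foxl2a*, *foxm1*, *hoxc13b* and *nkx3.3*.

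**Figure D3:**
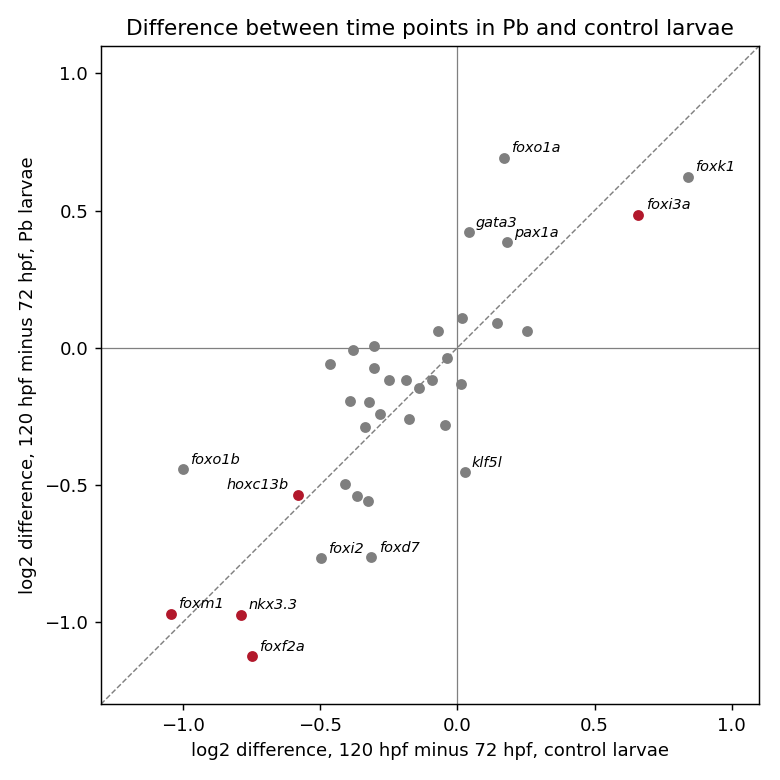
Log2 difference between 120 and 72 hpf in Pb-treated larvae (vertical) against that in control larvae (horizontal), 1 point per transcription factor gene, with the line of equal values dashed and the 5 genes that passed over both treatments in red. *foxm1*, *nkx3.3* and *foxf2a* lie far down in both treatments, and *foxo1a*, *foxo1b*, *klf5l* and *foxd7* lie farther from the line.

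Most differences between time points had the same sign in both treatments. Across the 36 genes the log2 differences of Pb-treated and control larvae, which come from separate arrays, correlated at r = 0.807, against 0.893 for the named targets and 0.851 for all targets, and 32 of 36 (88.9%) had the same sign, against 80.2% and 76.8%. The 4 genes of opposite sign were *her12*, *irx5b*, *klf5l* and *klf8*. Genes share arrays and are not independent replicates, so this is a description. The test of the difference itself, the interaction of Pb and time, passed for no gene and for 0% of all targets, and at an unadjusted p under 0.05 it held for 0 of the 36 genes and for 0.202% of all targets. The interval of that difference was −0.99 to 0.24 for *foxf2a*, −0.74 to 0.89 for *foxm1* and −0.88 to 0.51 for *nkx3.3* (95%, log2 scale), and all 3 intervals spanned 0.

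The comparison of Pb-treated with control larvae asked whether Pb changed these genes. At 120 hpf no gene passed the test, as no target did (0%), and 20 of the 36 genes were higher and 16 lower, with a median log2 difference of 0.01 against 0.00 for all targets. At an unadjusted p under 0.05 there was 1 gene, *eomesb*, where 0.301% of all targets reached it. At 72 hpf no gene passed either (0% of all targets), 19 were higher and 17 lower, and the median was 0.01 against 0.04 for all targets. No gene had an unadjusted p under 0.05 there, where 1.52% of all targets did.

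*eomesb* was a dim target, at percentile 17.8 of mean signal over all targets (a rank that also depends on the probes). It was read at 6.64, 6.66 and 7.01 in Pb-treated larvae and 6.25, 6.29 and 6.46 in control larvae at 120 hpf. It was the 1 gene whose Pb arrays all lay above the control arrays there (2.22% of all targets did so), and none lay all below (1.82%). Its log2 difference was 0.44 with a 95% interval of 0.00 to 0.87 (limma, an unadjusted p of 0.0489 and adjusted p = 1.00), and 11 of its 12 probes were higher. The difference was 0.25 with median polish and 0.055 with the probes within 500 nt of the last. At 72 hpf *eomesb* stood at 6.63, 6.75 and 7.11 in Pb-treated larvae and at 6.88, 6.93 and 6.58 in control larvae, with overlap.

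*pou4f3* was the gene with the highest estimate at 72 hpf and was higher in all 3 same-numbered pairs of arrays at both time points. At 72 hpf, here and below, replicate numbers were not taken as pairs. Differences there only set arrays normalized together by the authors side by side. At 120 hpf its values were 8.67, 9.12 and 9.11 in Pb-treated larvae and 8.60, 8.76 and 8.70 in control larvae, and at 72 hpf 8.67, 9.0 and 8.96 in Pb-treated larvae and 8.33, 8.74 and 8.55 in control larvae. The groups overlapped at both time points. Its log2 difference was 0.28 ± 0.20 (SE, limma adjusted p = 1.00) at 120 hpf and 0.34 ± 0.20 (adjusted p = 0.999) at 72 hpf.

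*pax1a* was lower in all 3 same-numbered pairs at both time points, with the same limit at 72 hpf. Pb-treated larvae gave 8.17, 8.19 and 8.27 and control larvae 8.34, 8.23 and 8.36 at 120 hpf, and Pb-treated larvae gave 7.62, 8.06 and 7.79 and control larvae 7.97, 8.27 and 8.15 at 72 hpf. The difference was −0.10 ± 0.18 on the log2 scale (SE, limma adjusted p = 1.00) at 120 hpf and −0.31 ± 0.18 (adjusted p = 0.999) at 72 hpf. Its spread over arrays was the smallest of the 36 genes (pooled SD 0.143), and the interval at 72 hpf ran from −0.69 to 0.08.

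Genes with 1 direction in all 3 same-numbered pairs were counted as well. At 120 hpf 5 genes were higher in all pairs and 2 lower, where 11.4% and 9.99% of all targets were. They were *eomesb*, *pou4f3*, *klf7b* (log2 difference 0.21), *irx3b* (0.20) and *irx5b* (0.08) on the higher side, and *foxd7* (−0.23) and *pax1a* on the lower. At 72 hpf 8 genes were higher and 2 lower, where 13.9% and 10.5% of all targets were. The 5 of smallest p on the higher side were *pou4f3*, *foxf2a* (0.30), *klf5l* (0.29), *nkx3.3* (0.30) and *foxl2a* (0.27), and the lower side held *pax1a* and *klf7b* (−0.16). None of these passed the test.

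**Figure D4:**
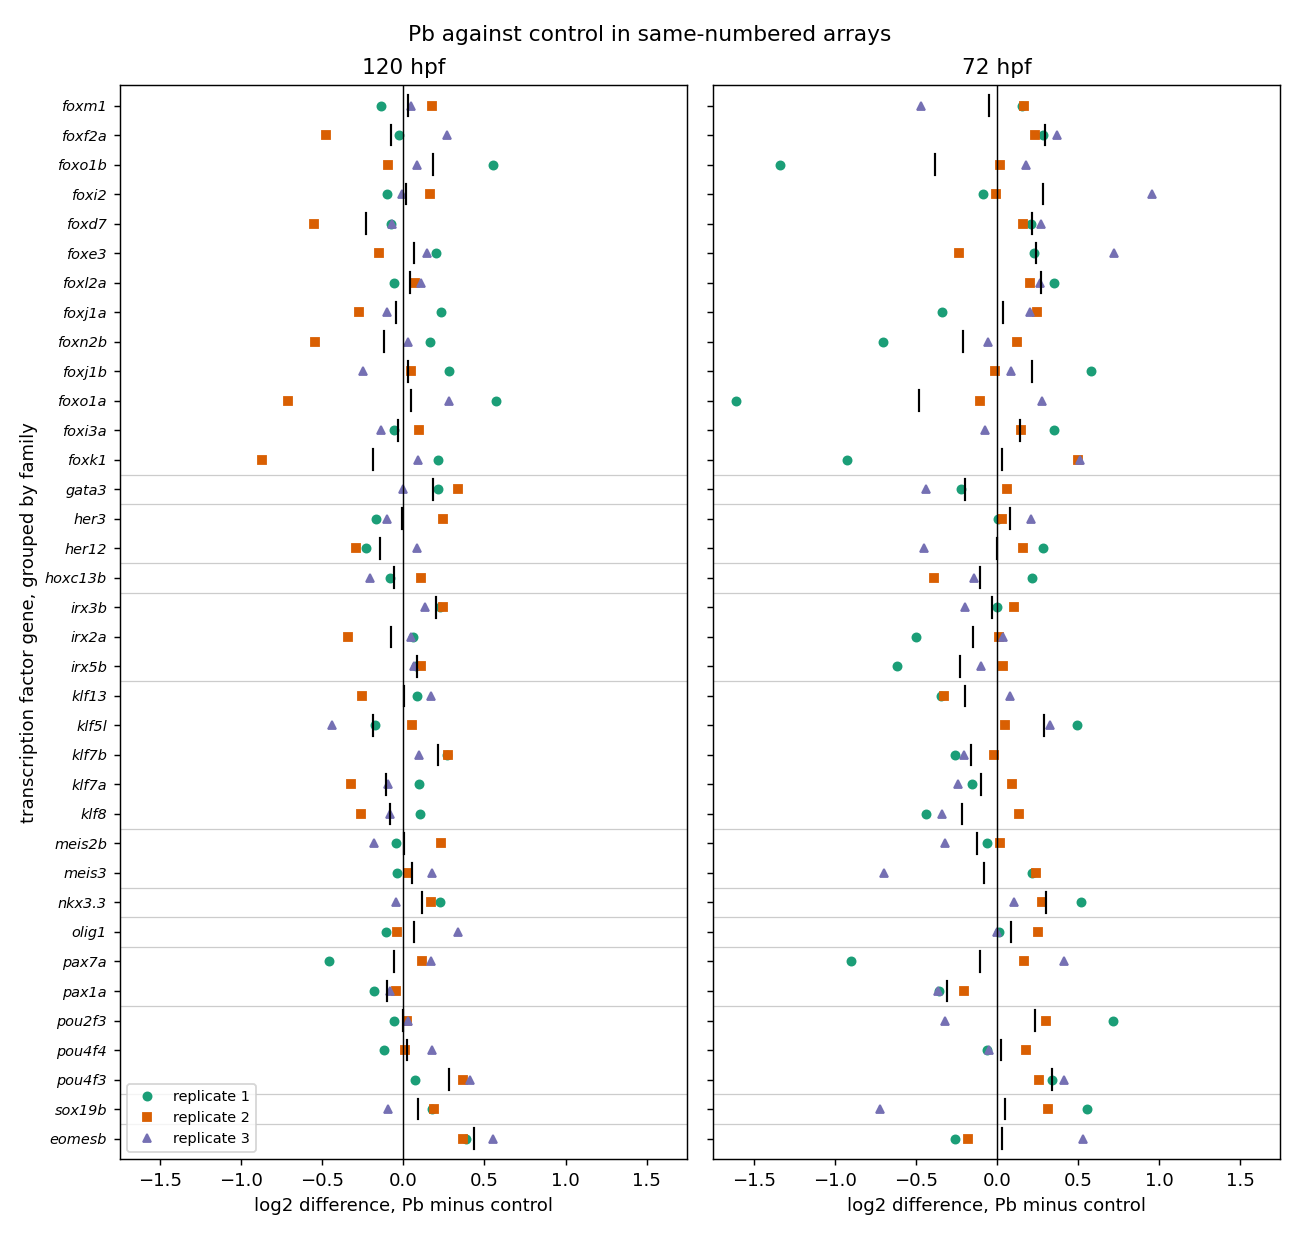
Log2 difference of Pb-treated minus control larvae at 120 hpf (left) and 72 hpf (right) for the 36 transcription factor genes, grouped by family, with 1 point per same-numbered pair of arrays and a short bar at the mean. At 72 hpf the points of replicate 1 reach −1.61 for *foxo1a* and −1.34 for *foxo1b*, and the bars stay between −0.48 and 0.34.

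Of the higher genes at 72 hpf, *foxf2a* and *klf5l* were the 2 whose Pb and control arrays did not overlap (2.78% of all targets lay above without overlap), and no gene lay below without overlap (1.92%). *foxf2a* read 9.88, 9.77 and 9.88 in Pb-treated larvae and 9.60, 9.53 and 9.51 in control larvae, and all 12 probes were higher. The log2 difference of 0.30 had an interval of −0.14 to 0.73 and an unadjusted p of 0.162 (limma). The spread behind both was estimated from all 4 groups and moderated by limma toward that of all targets. *klf5l* read 9.35, 9.17 and 9.29 in Pb-treated larvae and 8.85, 9.12 and 8.96 in control larvae, with an interval of −0.14 to 0.73. At 120 hpf both genes had lower estimates in Pb-treated larvae, −0.08 for *foxf2a* and −0.19 for *klf5l*.

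Several genes differed between Pb arrays more than between treatments. *foxo1a* had the largest pooled SD of the 36 genes, 0.785, against a median of 0.256 for the 36 and 0.324 for all targets. It read 10.95, 9.21 and 10.66 in Pb-treated larvae and 10.38, 9.92 and 10.38 in control larvae at 120 hpf, and 8.19, 10.26 and 10.29 in Pb-treated larvae and 9.80, 10.36 and 10.01 in control larvae at 72 hpf. *foxo1b* read 7.19, 8.94 and 9.05 in Pb-treated larvae and 8.52, 8.93 and 8.87 in control larvae at 72 hpf. The low value in each case is 72 hpf Pb array 1, which held the lowest of all 12 values for 9 of the 36 genes (13.6% of all targets), among them *foxj1a*, *foxk1*, *foxn2b*, *irx5b*, *klf8*, *pax1a* and *pax7a*. It also held the highest of all 12 values for 5 genes (19.5% of all targets), *foxf2a*, *foxm1*, *klf5l*, *pou2f3* and *sox19b*. Pb array 3 of 72 hpf held the lowest value for 3 of the 36 genes (16.4% of all targets) and the highest for 9 (20.1%).

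**Figure D5:**
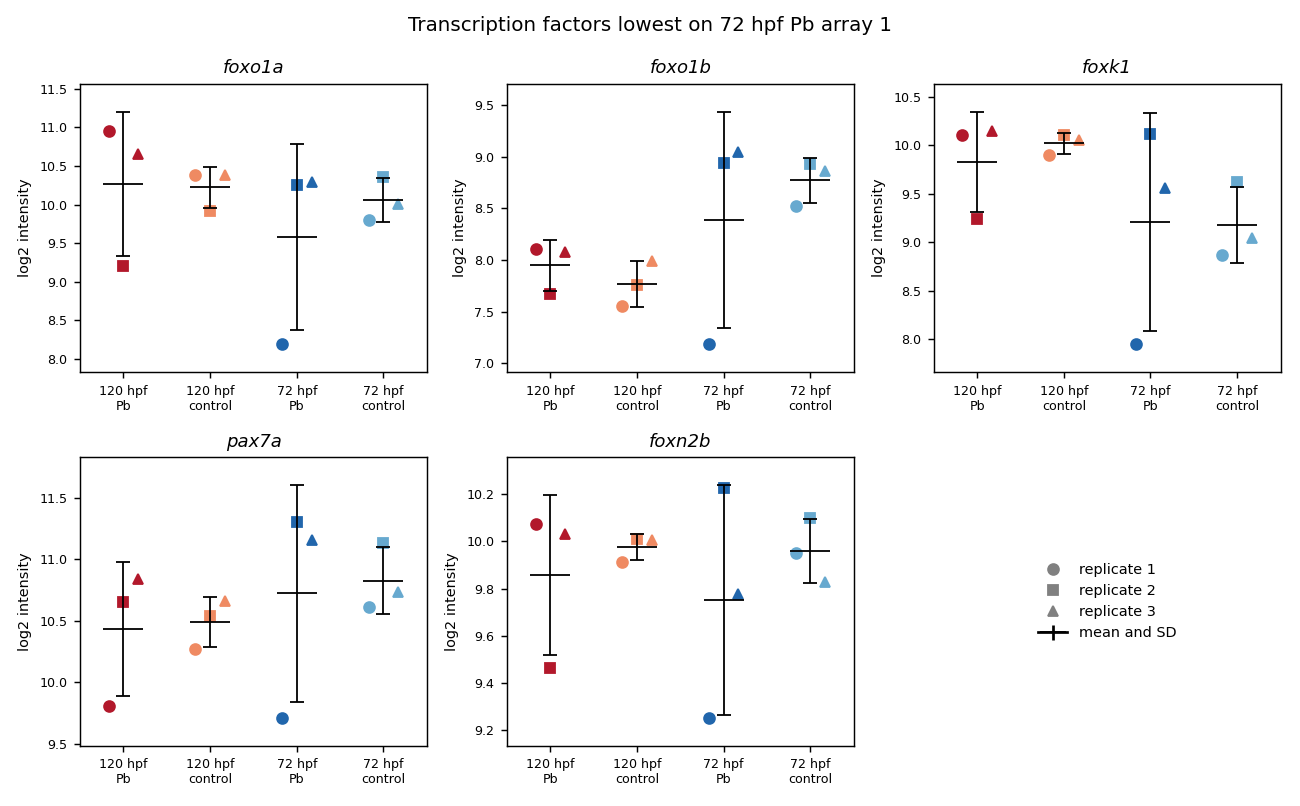
Log2 intensity on each of the 12 arrays of 5 genes chosen after their values were seen, *foxo1a*, *foxo1b*, *foxk1*, *pax7a* and *foxn2b*, for which 72 hpf Pb array 1 gave the lowest value, with mean and SD of 3 arrays as bars. The circle of replicate 1 lies at 8.19 for *foxo1a* and 7.19 for *foxo1b*, below all other arrays of its group.

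The steeper gradient of signal along targets on that array was set beside these values. Restricted to probes within 500 nt of the last probe, the pair difference of replicate 1 at 72 hpf was −0.67 for *foxo1a*, against −1.61 with all probes, and −1.60 for *foxo1b*, against −1.34. For *foxk1* it was −0.60 against −0.92, for *foxn2b* −0.27 against −0.70, for *irx5b* −0.64 against −0.61, and for *foxj1a* −0.07 against −0.34. The sign turned for *klf8*, 0.32 against −0.44, the fall of *pax1a* was larger, −0.78 against −0.35, and *pax7a*, whose 2 probes both lie in that window, kept −0.90. The 36 genes reached farther than the array as a whole, with a median last probe at 1727.5 nt against 901 nt for all targets. The named targets, from which the 36 were drawn, had a median of 1509 nt, so much of that gap is shared by named targets. Across the 36 genes the pair difference correlated weakly with the position of the last probe (r = −0.149, n = 36 genes on the same 2 arrays). Without 72 hpf Pb array 1 the median Pb difference of the 36 genes at 72 hpf was 0.16, still with no gene passing.

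Signals and partners of these factors were examined as lists chosen with earlier results known. Of 63 genes of the retinoic acid, Hedgehog, Fgf, Notch, Wnt and Bmp pathways 7 were named on the array, and of 39 cofactors 9, and none passed in any comparison. Over both treatments the signals had a median log2 difference between time points of −0.30, with 5 of 7 lower, and the cofactors −0.22, with 9 of 9 lower. All targets had a median of −0.05, with 56.4% lower. Among the signals the Fgf receptor *fgfr2* gave −0.51 (limma adjusted p = 0.114), the ligand *wnt3a* −0.49 (adjusted p = 0.225) and the retinoic acid receptor *rargb* −0.49 (adjusted p = 0.198). Among the cofactors the Hox partner *pbx4* gave −0.40 (adjusted p = 0.146) and the intestinal homeobox gene *cdx1b* −0.39 (adjusted p = 0.112).

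Under Pb no gene of the same lists passed either. The signals had a median log2 difference of 0.15 at 120 hpf, with 4 of 7 higher, and −0.07 at 72 hpf, with 1 of 7 higher, against 0.00 and 0.04 for all targets. The cofactors had −0.12 at 120 hpf, with 1 of 9 higher, and −0.01 at 72 hpf, with 4 of 9 higher. The retinoic acid degrading enzymes *cyp26b1* and *cyp26c1* gave 0.15 and 0.34 at 120 hpf and −0.01 and −0.07 at 72 hpf. The radial glia gene *fabp7a*, the 1 named marker of neural progenitors, was read by 3 probes, the last at 70 nt. Under Pb *fabp7a* gave −0.16 at 120 hpf and 0.25 at 72 hpf. Its level was lower at 120 hpf than at 72 hpf in both treatments, without overlap of the arrays. That fall passed over both treatments (limma adjusted p = 0.00504) and in Pb-treated larvae (log2 difference −1.21, adjusted p = 0.0346). In control larvae it was −0.80 and did not pass (adjusted p = 0.145). The interaction of Pb and time did not pass for *fabp7a* (limma, an unadjusted p of 0.312).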

How the data were processed

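RNA of 12 pools of whole larvae was measured on 12 one-color arrays. The values the authors deposited are linear intensities of 385000 probes on every array, already quantile normalized, and in the file this holds for each control array and its Pb partner. The methods and the submitters' processing notes also name RMA, and its version is not stated in those sources. Starting from log2 of these intensities, all 12 arrays were quantile normalized together and the probes of a target were averaged, with no further background subtraction and no filter on dim targets. Groups came from the sample labels.

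limma 3.58.1 (lmFit and eBayes) in R 4.3.3 with the data.table package (version 1.17.8) gave 1 mean per group, with no replicate block. Contrasts were 120 against 72 hpf in each treatment and over both, Pb against control at 72 and at 120 hpf, and the interaction. P values are two-sided, Benjamini-Hochberg adjusted over all targets, and held against 0.05. The fit was tested on simulated data with noise independent between arrays and a single SD per target. Those data held neither the correlation within pairs nor the larger spread of the Pb arrays.

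Targets were named through the platform annotation (2626) and RefSeq transcripts (37). Genes were named in the text where they passed, where, up to 5 a direction, Pb and control differed in 1 direction in all 3 pairs, and as the 2 extremes of mean signal in each larger family, without comparing their levels. Other genes are given by family to account for all 36. The members and lists were chosen with earlier results of these data known. Deviations of same-numbered arrays from their group means correlated at 0.548, 0.434 and 0.268 at 120 hpf, where replicate numbers were therefore taken as pairs from the data, and at 0.452, 0.402 and −0.069 at 72 hpf, where they were not. Pair differences at 72 hpf only set the arrays normalized together by the authors side by side. The alternative fits with a random block or a replicate block used the replicate numbers at both time points all the same. Precision is limited by having 3 arrays a group. Alternatives were other normalizations, summaries, probe sets, filters and fits, the methods' t-test, and omission of single arrays. That t-test was held against an unadjusted p of 0.1, alone or with an absolute log2 ratio of at least 0.585. The RefSeq annotation gave names and the order of neighboring genes, and no coordinate or sequence is printed.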

Additional observations from a re-analysis of the deposited data

Results flagged for a closer look

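*foxd7* and *klf7b* moved in opposite directions with Pb at the 2 time points, in all 3 pairs of arrays at each. They were picked from these data by that pattern, and the share of all targets that show it was not counted. At 72 hpf replicate numbers were not taken as pairs, and the differences there only set arrays normalized together side by side. *foxd7* differed by −0.08, −0.55 and −0.07 (log2, Pb minus control) in the pairs of 120 hpf and by 0.21, 0.16 and 0.28 in those of 72 hpf. The difference of its Pb effect between 120 and 72 hpf was −0.45, which did not pass limma's interaction test (an unadjusted p of 0.298, adjusted p = 1.00). *klf7b* differed by 0.27, 0.27 and 0.10 in the pairs of 120 hpf and by −0.26, −0.02 and −0.20 in those of 72 hpf, with a difference of 0.37 (an unadjusted p of 0.253, adjusted p = 1.00). Without control array 2 of 120 hpf the Pb difference at 120 hpf was −0.024 for *foxd7*, against −0.23 with all arrays, and 0.020 for *klf7b*, against 0.21. The sign of *klf7b* at 72 hpf turned when Pb arrays 1 and 3 of 72 hpf were left out (0.050), a fit that leaves a single Pb array there.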

How the results depend on the processing

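The fall of *foxf2a* (23 alternatives) and of *nkx3.3* (22) over both treatments passed in every alternative in which each was tested, *nkx3.3* not being tested with the lowest 50% of targets left out, and *foxm1* passed in 22 of 23 (adjusted p = 0.0736 with probes within 500 nt of the last). *foxi3a* lost its call in 9 of 23 and *hoxc13b*, not tested with the lowest 25% or 50% of targets left out, in 12 of 21. Over both treatments 3 genes passed with median centering, with the lowest 50% left out and with the pair as a random block, and 11 (1 higher, 10 lower) with array weights, and leaving out 1 array gave 3 to 9. With array weights 4836 of all 37157 targets passed as higher and 5006 as lower in that comparison. Median centering passed 2176 as higher and 959 as lower there, and the random block 1980 and 1021. With the lowest 50% left out, 1998 of 18578 targets passed as higher and 1396 as lower. Without control array 3 of 120 hpf 1972 targets passed as higher and 978 as lower. For control larvae array weights passed 6677 targets as higher and 7164 as lower. Fitting only the groups compared passed 2201 targets as higher and 1341 as lower there. In control larvae, against 1 gene in the main fit, 0 passed with values as deposited, median centering, median polish and probes within 500 nt. A variance trend and the adjusted t-test of the methods also gave 0. There 2 passed with the lowest 25% or 50% left out, and 0 to 3 with 1 array left out. Only the groups compared gave 3 (1 higher, 2 lower), and array weights 14 (2 higher, 12 lower). The methods' t-test gave 6 (2 higher, 4 lower) with its ratio and 13 (2 higher, 11 lower) alone. In Pb-treated larvae, against 2, 0 passed with values as deposited, probes within 500 nt, only the groups compared, the adjusted t-test and without Pb arrays 1 and 3 of 72 hpf, 1 with median centering, the lowest 50% left out and a variance trend, 4 lower by the t-test with its ratio, 10 (2 higher, 8 lower) by it alone, and 1 to 2 with 1 array left out. The t-test alone, at an unadjusted p of 0.1 or less, gave 3 genes, all higher, for Pb at 72 hpf and 2, both higher, at 120 hpf. The share of all targets that the t-test gave was not counted, so no count of that test here has a background beside it. No other alternative passed any gene for Pb. With a replicate block 0 genes passed in control larvae (*foxm1* adjusted p = 0.0516) and 7 over both treatments, and the block changed no count for Pb or in Pb-treated larvae. Of all targets, 1461 passed as higher and 502 as lower in control larvae with that block. Over both treatments 3051 and 1948 did, so the count over all targets rose as well. Numbers did not pair arrays between time points (correlations of deviations −0.455 to 0.551).

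Values as deposited shifted the median of all targets between time points to −0.33 in control larvae, −0.33 in Pb-treated larvae and −0.34 over both, and the median of the 36 genes to −0.51, −0.44 and −0.45. In control larvae that median was −0.14 with the lowest 50% left out and −0.29 to −0.16 with 1 array left out, and in Pb-treated larvae −0.25 to −0.08. For Pb at 72 hpf it was −0.10 with the lowest 50% left out, 0.19 without Pb arrays 1 and 3 and −0.11 to 0.16 with 1 array left out. For Pb at 120 hpf it was −0.0065 with median polish, 0.057 with probes within 500 nt and −0.017 to 0.043 with 1 array left out. Single genes kept their direction in all but 2 of 495 gene values: *irx5b* at 120 hpf under array weights (−0.012) and *klf7b* at 72 hpf without Pb arrays 1 and 3 (0.050). That count is no test of direction. Its genes had been chosen because they passed or had 1 direction in all 3 pairs. Several alternatives, such as the replicate block, also leave the estimate itself unchanged. The average over treatments, the random block and the fit without Pb arrays 1 and 3 were chosen after seeing the data. That last fit leaves a single Pb array of 72 hpf. The causes of these shifts were not tested. With 3 arrays a group, a log2 difference of −0.97 (*foxm1* in Pb-treated larvae) did not pass. The larger fall of *foxo1b* between time points in control larvae did not pass either.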
